A study of Mus musculus with 4 samples.

Results

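The 4 ERBB receptor genes and 6 genes for their EGF family ligands were followed in mammary glands that carry a HER2 transgene and are labelled as knockout or wild type for stathmin. The members were Erbb2, Erbb3, Erbb4, Egfr, Areg, Ereg, Hbegf, Tgfa, Btc and Nrg1, which is 10 of the 18952 genes named on the arrays. Every non-control probe whose accession maps to a member in mouse RefSeq was taken, which gave 23 probes, 13 for receptors and 10 for ligands. The study hybridised mammary gland RNA of female mice aged 13 weeks, before any tumour, to 4 one-colour Agilent arrays. Of these, 2 arrays came from mice labelled STM KO (STM KO 1 and STM KO 2), for a knockout of stathmin, the microtubule-destabilising protein encoded by Stmn1, and 2 came from mice labelled WT for stathmin (WT 1 and WT 2). All 4 carry Δ16HER2, a shortened and constitutively active splice variant of human HER2, so no array shows a gland without the transgene. The labels name no promoter for the transgene, no strain and no number of animals per sample, and the tests therefore measure only the spread between these samples, which may be technical.

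The ERBB receptors are tyrosine kinases of epithelial and other cells that work in pairs. EGF family ligands are made as membrane proteins, are cut free by proteases and bring 2 receptors together, after which the receptors phosphorylate each other and recruit adaptors of the RAS to ERK and PI3K to AKT pathways. Erbb2, the mouse HER2 gene, encodes a receptor with no known ligand of its own, and Erbb3 encodes its preferred partner, whose own kinase is weak. In the mammary gland amphiregulin, the product of Areg, is made by hormone-sensing luminal cells and acts on EGFR of the stroma during duct growth, while ERBB4 and neuregulins take part in alveolar differentiation.

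The sequences upstream of Erbb2, Egfr and Areg are shown because Egfr and Areg stood highest on the same array, WT 2, and Erbb2 stood lowest on another, STM KO 2. Btc too was highest on WT 2, as were 23% of all tested genes, and 22.4% were lowest on STM KO 2. RefSeq promoter windows (build GRCm38.p6) were found for 6 of the 10 members, and the 250 bases before the start of each of these 3 genes are given 5′ to 3′ on the strand of the gene. Capitals mark matches on either strand to the GC box (GGGCGG), the CAAT box (CCAAT), the TATA box (TATAAA), the cAMP response element (CRE, TGACGTCA) and its shorter core (TGACG). The Erbb2 window is chr11:98412234-98412483 (+ strand), the Egfr window is chr11:16751953-16752202 (+ strand) and the Areg window is chr5:91139349-91139598 (+ strand).
Erbb2: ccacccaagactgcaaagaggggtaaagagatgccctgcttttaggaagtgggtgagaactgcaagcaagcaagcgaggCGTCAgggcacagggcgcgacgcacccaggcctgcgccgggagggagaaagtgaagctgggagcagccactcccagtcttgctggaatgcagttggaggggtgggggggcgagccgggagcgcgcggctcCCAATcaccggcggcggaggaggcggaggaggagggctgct
Egfr: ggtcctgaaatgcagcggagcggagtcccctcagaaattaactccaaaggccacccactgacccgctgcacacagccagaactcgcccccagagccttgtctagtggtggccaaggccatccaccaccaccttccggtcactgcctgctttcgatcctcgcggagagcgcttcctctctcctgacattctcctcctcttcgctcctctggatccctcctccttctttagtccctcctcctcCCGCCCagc
Areg: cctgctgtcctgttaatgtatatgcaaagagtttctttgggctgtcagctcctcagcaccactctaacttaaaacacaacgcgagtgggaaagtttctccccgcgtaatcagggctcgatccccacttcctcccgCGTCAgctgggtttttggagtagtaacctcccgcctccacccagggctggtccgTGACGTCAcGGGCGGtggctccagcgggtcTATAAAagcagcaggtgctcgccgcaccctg
The Areg window held 1 CRE, 1 GC box and 1 TATA box, and 2 of its 3 core matches are the strands of that CRE. The Egfr window held 1 GC box and none of the other motifs, and the Erbb2 window held 1 CAAT box and 1 CRE core. Of 32851 windows of the same length in the table, 1.55% held the CRE, 32.7% the GC box, 33.8% the CAAT box, 12.4% the TATA box and 17.8% the CRE core. A match is a run of letters only, and nothing measured here tests binding at these windows.

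Levels are log2 processed signals minus the array's 75th percentile, which was a signal of 291 on STM KO 1, 160 on STM KO 2, 191 on WT 1 and 144 on WT 2. Levels of different probes are not compared, since each probe has its own response. Fold changes are STM KO minus WT on the log2 scale, with 2 arrays per group, and so few arrays limit precision. The share of spots well above background was 54.7% to 66.2% per array, and Pearson correlations across tested probes between arrays were 0.963 to 0.975. The arrays lay on 1 slide in an order that follows the genotype, so genotype and place on the slide cannot be told apart. The brighter probe of Stmn1, the targeted gene, read 4.56 and 3.34 on the STM KO arrays, against 5.59 and 3.59 on the WT arrays. Both arrays labelled STM KO gave clear signal at this probe and the groups overlapped, which goes against the label, and the place of the probe relative to the deletion is not given in the sources used here. The dimmer Stmn1 probe was well above background on WT 1 alone. It read -5.71 and -5.05 on the STM KO arrays, against -1.13 and -3.39 on the WT arrays. At this dimmer probe both STM KO arrays thus lay below both WT arrays, as the label would have it, so the 2 probes differed. STM KO below therefore means labelled STM KO, and every direction rests on these labels. The labels give the tissue as mammary gland and its histotype as epithelial. Markers of luminal epithelium (9 of 10), basal epithelium (10 of 10), adipocytes (8 of 8), fibroblasts (8 of 8) and skeletal muscle (6 of 6) were well above background on all 4 arrays, so each sample held more than epithelium. In such bulk samples fewer cells of a type and less RNA per cell cannot be told apart. STM KO 2 stood apart from the other arrays in lymphocyte markers. The summed signal of 6 T cell markers was 0.59 on STM KO 1 and 12.5 on STM KO 2, against 0.59 on WT 1 and 0.60 on WT 2 (in multiples of the 75th percentile), and that of 6 B cell markers was 0.60 and 24.6, against 0.81 and 0.65. Cd4 and Pax5 of these lists were not well above background on any array. Receptor and ligand results that lean on STM KO 2 are also given without it, and marker lists are given per array.

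No receptor or ligand differed between STM KO and WT glands after adjustment over all probes. Of the 10 genes, 6 were bright enough to test by their brightest probe (Erbb2, Erbb3, Egfr, Areg, Hbegf and Btc), 5 of them with a negative log2 fold change and 1, Hbegf, with a positive one. By limma with Benjamini-Hochberg adjustment, 0 of these 6 genes had an adjusted p under 0.05, as did 0 of all 13204 genes tested (0% in either direction). At an unadjusted p under 0.05 there were again 0 of the 6 genes by their brightest probe, against 3.54% of all genes. Log2 fold changes were below 0 for 50.7% of all genes and above 0 for 49.3%. The median log2 fold change was -0.29 over the 6 genes and -0.01 over all tested genes, and it was 0.088 without WT 2. Both STM KO arrays lay above both WT arrays for Hbegf (17.8% of all genes did so) and below them for Erbb2 (17.7% of all genes did so). By their brightest probe the other 4 tested genes overlapped between the groups, though a dimmer Erbb3 probe, A_51_P342050, did not.

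**Figure D1:**
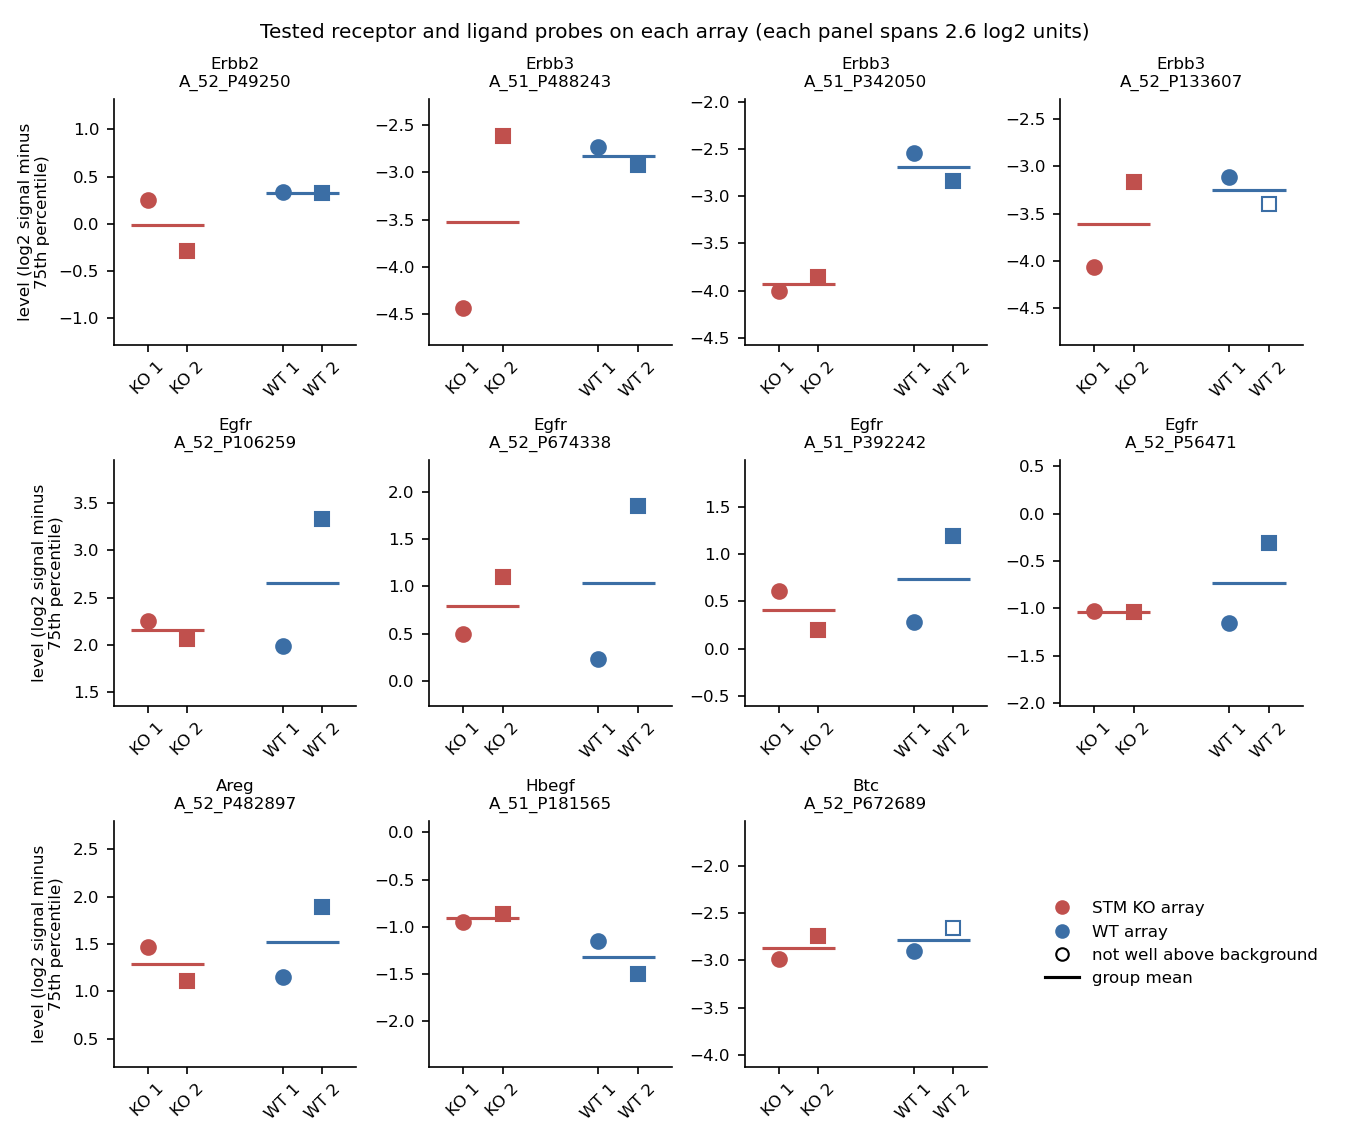
Level of each of the 11 tested receptor and ligand probes (log2 signal minus the array's 75th percentile) on the 2 STM KO arrays (red, left) and the 2 WT arrays (blue, right), with group means as lines and open symbols where a reading did not clear background. Egfr and Areg stand highest on WT 2, Erbb2 stands lowest on STM KO 2, and the groups separate for Erbb2, 1 of 3 Erbb3 probes and Hbegf.

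Erbb2 was low on a single array. Its bright probe, A_52_P49250 (accession NM_001003817), read 0.26 on STM KO 1 and -0.29 on STM KO 2, against 0.33 on WT 1 and 0.32 on WT 2. The WT arrays were nearly equal, STM KO 1 lay just under them, and STM KO 2 lay 0.54 below STM KO 1. The log2 fold change was -0.34 ± 0.29 (SE, n = 2 per group, limma adjusted p = 0.935), with a 95% interval from -1.08 to 0.39, and it was -0.071 without STM KO 2. With each array scaled by epithelial markers in place of its 75th percentile it was -0.050, and with scaling by the median of all probes -0.17. Each of these scalings shifts all probes alike, and the median of all tested genes moved from -0.01 to 0.29 and 0.17. The smaller values therefore follow from the scaling and are no finding about Erbb2 itself. This probe is printed in 10 spots on each array, and the SD between its spots was 0.12 on STM KO 1, 0.21 on STM KO 2, 0.10 on WT 1 and 0.06 on WT 2. The highest of the 10 spots on STM KO 2 read 0.16, which is below the lowest spot on WT 1 (0.21) and on WT 2 (0.23). The array's difference was thus larger than the spread between spots, which is measurement error within an array and not variation between samples. Among all tested genes, 3.36% were lowest on STM KO 2 by at least as much.

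STM KO 2 also had the lowest epithelial markers. The mean level of 10 luminal epithelium markers was 1.18 on STM KO 1 and 0.39 on STM KO 2, against 1.16 on WT 1 and 1.18 on WT 2, and the mean of 10 basal markers was 1.47 and 1.02, against 1.63 and 1.27. The summed signal of the luminal list was 124 and 78.4 on the STM KO arrays, against 104 and 140.1 on the WT arrays. Krt8, a keratin of luminal cells, read 5.25 and 4.65, against 5.25 and 5.38, and Epcam, an epithelial adhesion protein gene, read 0.78 and -0.56, against 0.59 and 0.14. Taken relative to the luminal list on the same array, Erbb2 lay at -0.93 on STM KO 1 and -0.68 on STM KO 2, against -0.83 on WT 1 and -0.86 on WT 2. The mean of that difference was -0.80 on the STM KO arrays and -0.84 on the WT arrays, so relative to luminal markers the 2 groups overlapped. Relative to the basal list, Erbb2 lay at -1.21 and -1.31, against -1.29 and -0.95. The part of epithelial content in the Erbb2 reading was not tested beyond these values.

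The other Erbb2 probe, A_51_P216179, was well above background on no array, with signals of 2.62 and 1.91 on the STM KO arrays, against 4.01 and 2.64 on the WT arrays. The files used here give no probe sequences, and cross-hybridisation of either Erbb2 probe with the human transgene was not tested. The values above are those of a probe annotated to the mouse transcript, and no level of Δ16HER2 itself is given.

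**Figure D2:**
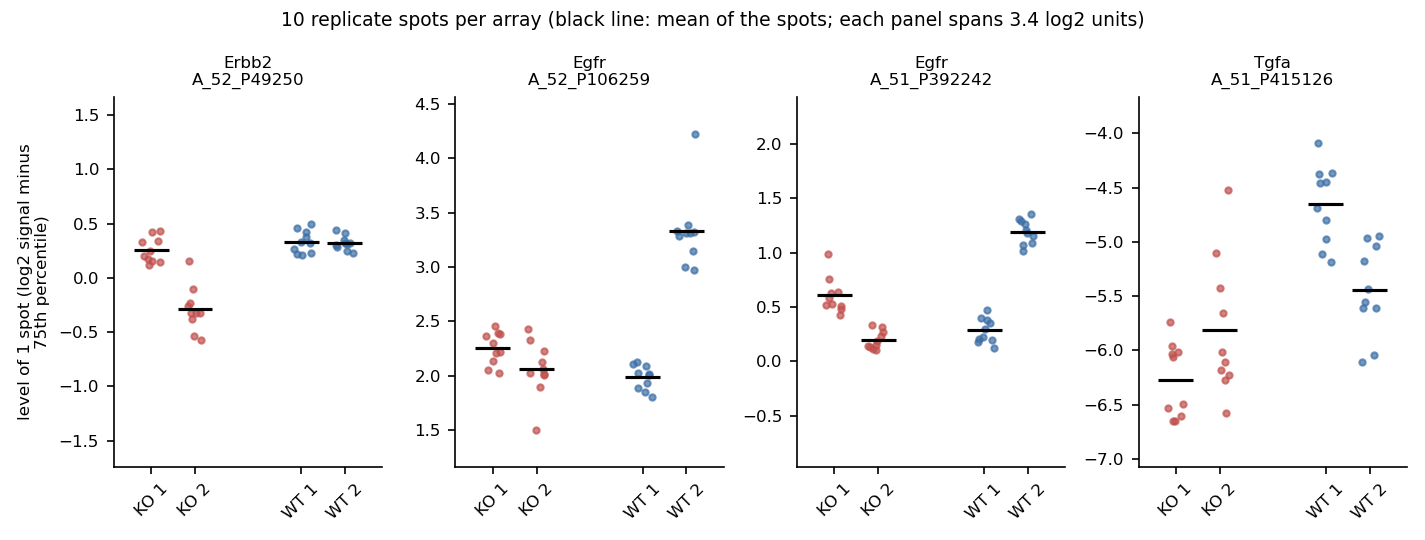
Level of each of 10 replicate spots (log2 signal minus the array's 75th percentile) for the Erbb2, Egfr and Tgfa probes that are printed 10 times, on STM KO arrays (red, left) and WT arrays (blue, right), with the mean of the spots as a black line. All 10 Erbb2 spots on STM KO 2 lie below the WT spots, and all 10 spots of both Egfr probes on WT 2 lie above those of the other arrays.

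Erbb3, the partner of Erbb2 and a neuregulin receptor, was dim, and its probes differed in how clearly the groups stood apart. Probe A_51_P342050 read -4.004 on STM KO 1 and -3.86 on STM KO 2, against -2.54 on WT 1 and -2.84 on WT 2, so both STM KO arrays lay below both WT arrays. Its log2 fold change of -1.24 ± 0.26 (SE) had an unadjusted limma p of 0.00407 and an adjusted p of 0.935, and unadjusted values under 0.05 were found for 3.7% of all probes. It ran from -1.39 to -1.10 as each array was left out, but was -0.50 under normexp, a model-based background correction used in place of the scanner's own. The brightest Erbb3 probe, A_51_P488243, read -4.43 and -2.62 on the STM KO arrays, against -2.73 and -2.92 on the WT arrays, and here STM KO 1 alone was low. Its log2 fold change was -0.70 ± 0.61 (adjusted p = 0.935), with a 95% interval from -2.24 to 0.85, and turned to 0.21 without STM KO 1 and was -0.36 under normexp. The third tested probe, A_52_P133607, read -4.06 and -3.17 on the STM KO arrays, against -3.11 and -3.39 on the WT arrays, with a log2 fold change of -0.36 ± 0.37 (adjusted p = 0.937). It too was lowest on STM KO 1, its groups overlapped, and it was not well above background on WT 2. All 3 probes thus read lower on STM KO 1 than on either WT array, but they placed STM KO 2 below, above and within the WT readings.

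The processed signals behind the Erbb3 levels were small. The 3 tested probes had signals of 13.5 to 18.2 on STM KO 1 and 11.01 to 26.1 on STM KO 2, against 22.2 to 32.9 on WT 1 and 13.7 to 20.2 on WT 2. The lowest level of any probe that still counted as well above background was -4.79 on STM KO 1 and -4.30 on STM KO 2, against -4.21 on WT 1 and -3.78 on WT 2. The Erbb3 reading nearest to it was -4.43 on STM KO 1, while the reading of -2.54 on WT 1 lay well above it. This lowest level is not a detection limit, since A_52_P133607 exceeded it on WT 2, at -3.39, and was not well above background there. The fourth probe, A_51_P414813, was well above background on no array. Schwann cells also use ERBB3, and the mean level of 6 Schwann cell markers was 1.601 and 1.31 on the STM KO arrays, against 1.87 and 1.96 on the WT arrays. The part of these cells and of luminal epithelium in the Erbb3 readings was not tested.

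Egfr, the receptor for EGF, amphiregulin and most other ligands measured here, was high on WT 2. Its brightest probe, A_52_P106259 (accession NM_207655), read 2.25 on STM KO 1 and 2.06 on STM KO 2, against 1.98 on WT 1 and 3.33 on WT 2. The STM KO arrays lay between the 2 WT arrays, so the groups overlapped, and WT 2 exceeded the next array by 1.08, which 0.523% of all tested genes did on that array. Its log2 fold change was -0.50 ± 0.48 (SE, adjusted p = 0.935), with a 95% interval from -1.72 to 0.72, and turned to 0.17 without WT 2. The 10 spots of this probe ran from 2.97 to 4.22 on WT 2, and no spot on the other 3 arrays exceeded 2.45.

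The other 3 Egfr probes had the same highest array. Probe A_52_P674338, of the same transcript, read 0.50 and 1.1 on the STM KO arrays, against 0.23 and 1.85 on the WT arrays. Probe A_51_P392242 (accession NM_007912), also printed in 10 spots, read 0.61 and 0.20, against 0.28 and 1.19, and probe A_52_P56471 of that transcript read -1.03 and -1.04, against -1.16 and -0.30. WT 2 was above WT 1 by 1.35, 1.62, 0.91 and 0.85 over the 4 probes, and the fold changes of all 4 turned positive without WT 2, to between 0.12 and 0.57, and that of A_52_P674338 also without STM KO 1, to 0.061. With all arrays their log2 fold changes lay between -0.50 and -0.24, with adjusted p from 0.935 to 0.969. Probes of both RefSeq transcripts therefore all placed WT 2 highest, with the difference between STM KO and WT smaller than the difference between the 2 WT arrays.

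Cells other than epithelium also express Egfr, and some of their marker lists were highest on WT 2, macrophages clearly and adipocytes narrowly. The mean level of 6 macrophage markers was 0.65 and 0.72 on the STM KO arrays, against 0.74 and 1.502 on the WT arrays, and that of 8 adipocyte markers was 5.57 and 5.54, against 5.13 and 5.71. The summed signals were 14.3 and 15.3, against 13.4 and 24.1, for macrophage markers and 591 and 716, against 627 and 858, for adipocyte markers. The mean of 8 fibroblast markers was 4.04 and 3.94, against 4.57 and 4.54, so WT 2 was not above WT 1 in that list. The Schwann cell mean was highest on WT 2 (1.96, against 1.87 on WT 1), and the endothelial mean was highest on WT 1 (1.11). The summed luminal signal was also highest on WT 2 (140.1), but the luminal mean was not. The part of these cells in the Egfr readings was not tested.

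**Figure D3:**
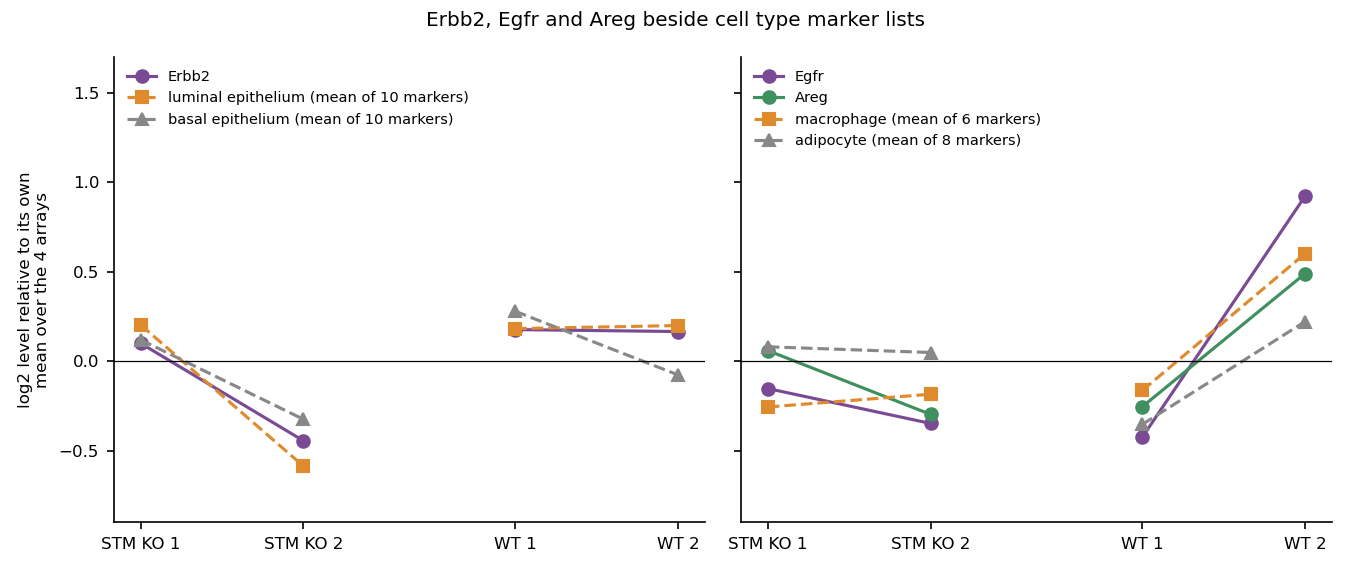
Log2 level of Erbb2 (left) and of Egfr and Areg (right) by their brightest probe, each relative to its own mean over the 4 arrays, beside the mean of cell type marker lists, with STM KO arrays left of WT arrays. Erbb2 and the luminal list are both lowest on STM KO 2, and Egfr, Areg and the macrophage list are all highest on WT 2.

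Erbb4, the neuregulin receptor linked to alveolar differentiation, was not detected. None of its 3 probes was well above background on any array, and their signals were 1.68 to 4.17 on the STM KO arrays, against 2.17 to 5.11 on the WT arrays. No fold change is given for it, and these arrays cannot show whether it differed.

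Areg, like Egfr, was highest on WT 2, with a smaller lead. Its probe, A_52_P482897, read 1.47 on STM KO 1 and 1.11 on STM KO 2, against 1.15 on WT 1 and 1.90 on WT 2. WT 2 led by 0.43, which 3.76% of tested genes did on that array, and STM KO 2 and WT 1 were nearly level, so the groups overlapped. The log2 fold change was -0.24 ± 0.35 (SE, adjusted p = 0.945), with a 95% interval from -1.11 to 0.64, and was 0.14 without WT 2. Relative to the luminal list it lay at 0.28 and 0.71 on the STM KO arrays, against -0.01 and 0.72 on the WT arrays.

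Hbegf, which encodes heparin-binding EGF-like growth factor, a ligand of EGFR and ERBB4, was the 1 tested member with a positive fold change. It read -0.95 on STM KO 1 and -0.87 on STM KO 2, against -1.15 on WT 1 and -1.49 on WT 2. The STM KO arrays lay close together and above both WT arrays. The log2 fold change was 0.42 ± 0.26 (SE, adjusted p = 0.935), with a 95% interval from -0.24 to 1.07. It was 0.24 to 0.59 as each array was left out, but 0.080 under normexp. With scaling by epithelial markers, which moved the median of all tested genes to 0.29, it was 0.71. Relative to the luminal list the STM KO arrays lay at -2.13 and -1.26, against -2.31 and -2.67 on the WT arrays.

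Btc, the gene of betacellulin, another ligand of EGFR and ERBB4, was dim and close to equal in the groups. Probe A_52_P672689 read -2.99 and -2.74 on the STM KO arrays, against -2.91 and -2.66 on the WT arrays, and was not well above background on WT 2. Its log2 fold change was -0.08 ± 0.26 (SE, adjusted p = 0.976), and its 95% interval from -0.74 to 0.57 does not exclude a difference of up to those sizes. Under normexp it was -0.21. The second Btc probe was well above background on STM KO 2 alone.

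Ereg, Nrg1 and Tgfa could not be tested. Ereg, which encodes epiregulin, had signals of 11.1 and 17.1 on the STM KO arrays, against 28.6 and 9.39 on the WT arrays, and was well above background on STM KO 2 and WT 1 only. Nrg1, the neuregulin that binds ERBB3 and ERBB4, had 3 probes, of which 1 was well above background on STM KO 1 alone and 2 on no array. The Nrg1 probe seen on STM KO 1 had signals of 17.1 and 7.85 on the STM KO arrays, against 13.4 and 10.745 on the WT arrays. Tgfa, which encodes the EGFR ligand TGF-alpha, was well above background on no array with either probe, and the SD between the 10 spots of A_51_P415126 was 0.34 and 0.63 on the STM KO arrays, against 0.36 and 0.42 on the WT arrays. Both Tgfa probes read highest on WT 1, at -4.62 and -4.65, which is below the lowest level counted as well above background on that array. Epgn, Ereg, Areg and Btc follow each other on mouse chromosome 5 with 0 other protein-coding genes between them, and only Areg of these was well above background on all 4 arrays.

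**Figure D4:**
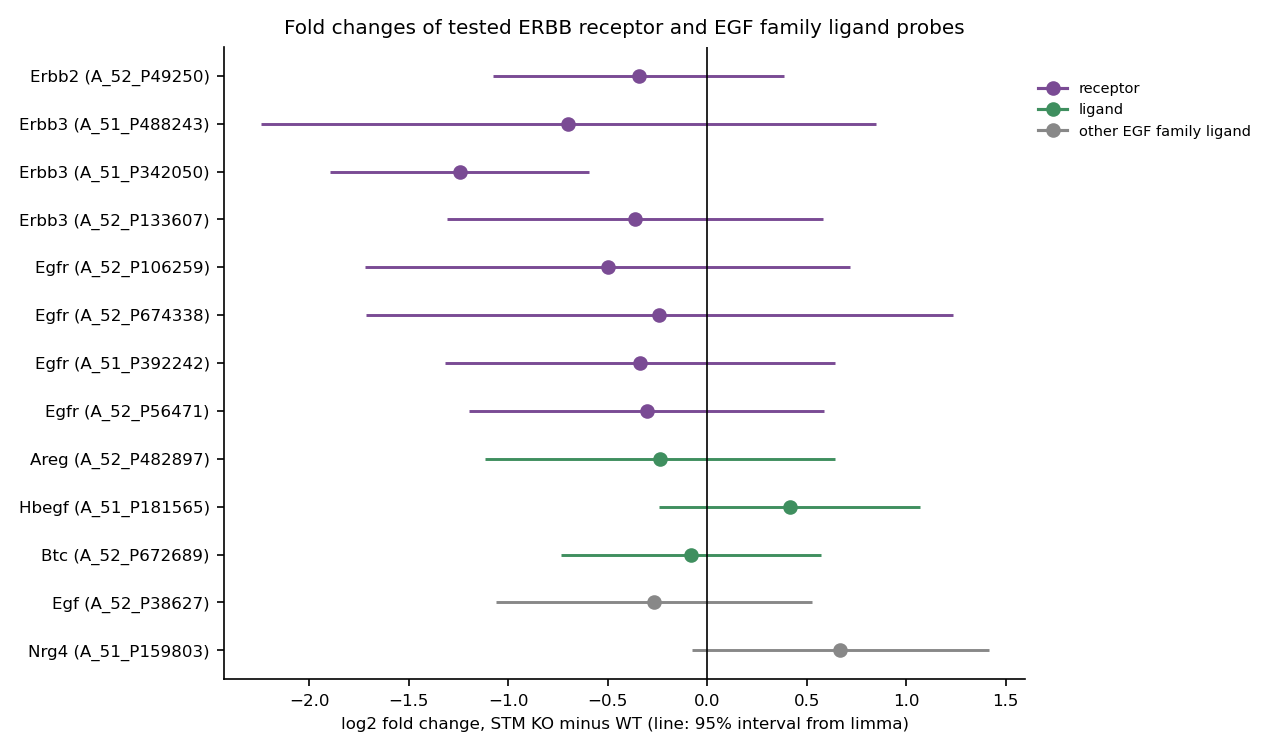
Log2 fold change (STM KO minus WT) of each tested receptor (purple) and ligand (green) probe and of Egf and Nrg4 (grey), with its 95% interval from limma as a line. The interval of 1 probe, A_51_P342050 of Erbb3, leaves out 0, and its adjusted p is 0.935.

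Of the 5 other EGF family ligands listed, 4 had a probe and 3 were tested. Nrg4, a neuregulin that in mouse is secreted by brown and white fat and binds ERBB4, read 3.55 on STM KO 1 and 3.14 on STM KO 2, against 2.48 on WT 1 and 2.87 on WT 2. Both STM KO arrays lay above both WT arrays, and the log2 fold change was 0.67 ± 0.29 (SE, adjusted p = 0.935), with a 95% interval from -0.07 to 1.41. Without 1 array it lay between 0.46 and 0.88. Nrg4 and the mean of the 8 adipocyte markers given above were both lowest on WT 1, as were 26.7% of all tested genes. They parted on WT 2, where the adipocyte mean was highest of all arrays and Nrg4 lay below both STM KO arrays. Positive fold changes were found for 5 of those 8 markers, and the median of the list was 0.27. The part of adipocytes in the Nrg4 reading was not tested. Egf, the founding ligand of EGFR, read 0.54 and 1.21 on the STM KO arrays, against 1.14 and 1.13 on the WT arrays, so STM KO 1 alone was low, and its log2 fold change was -0.27 ± 0.31 (adjusted p = 0.938). Epgn, which encodes epigen, was well above background on neither WT array. Its level was -3.40 and -3.16 on the STM KO arrays, against measured readings of -3.93 and -3.36 on the WT arrays, so the groups overlapped, and its log2 fold change of 0.36 had a 95% interval from -0.41 to 1.13 (adjusted p = 0.935). Nrg3 was well above background on STM KO 2 alone and was not tested.

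Genes that cut, restrain or carry the signal of the receptors were counted by list, together with the other EGF family ligands above. None of the 46 tested genes of the 52 listed in all (49 with a probe) passed an adjusted p of 0.05. Of the 46 genes 22 had positive and 24 negative log2 fold changes, with a median of -0.0038. At an unadjusted p under 0.05 there was 1 gene, Errfi1, against 3.54% of all genes. Both STM KO arrays lay above both WT arrays for 8 of the 46 (17.8% of all genes) and below them for 10 (17.7% of all genes).

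Receptor regulators had 9 of 13 tested genes negative, with a median of -0.10. Errfi1, whose product MIG6 binds and inhibits the EGFR and ERBB2 kinases and is itself induced by EGFR signalling, read 2.89 on STM KO 1 and 2.50 on STM KO 2, against 3.51 on WT 1 and 3.39 on WT 2. Both STM KO arrays lay below both WT arrays, with a log2 fold change of -0.76 ± 0.27 (SE, adjusted p = 0.935) that ran from -0.95 to -0.56 as each array was left out. Muc4, a membrane mucin that binds ERBB2, read -3.42 and -3.22 on the STM KO arrays, against -1.94 and -3.20 on the WT arrays. WT 1 alone was high, and the log2 fold change of -0.75 ± 0.46 (adjusted p = 0.935) was -0.12 without WT 1 and -0.44 under normexp. For 5 of the 13 regulators both STM KO arrays lay below both WT arrays, against 17.7% of all genes. For 0 they lay above, against 17.8% of all genes. Some of the 5 separated only narrowly, such as Muc4, at -3.22 on STM KO 2 and -3.20 on WT 2. Another regulator read -1.13 on STM KO 1 and -1.10 on WT 1. Several cell type lists were lower too. Fold changes were negative for 8 of 8 fibroblast markers (median -0.62, 7 of them with no overlap between groups), 6 of 6 endothelial markers (median -0.44) and 6 of 6 macrophage markers (median -0.38). The macrophage mean was high on WT 2 alone. Medians were also negative in other lists, such as luminal (-0.36), basal (-0.28) and skeletal muscle (-0.31) markers. The luminal mean was low on STM KO 2 alone (1.18 on STM KO 1 and 0.39 on STM KO 2, against 1.16 and 1.18 on the WT arrays). The basal mean was also lowest on STM KO 2. The skeletal muscle mean was lowest on STM KO 1 (6.10, and 6.54 on STM KO 2, against 6.73 and 6.58 on the WT arrays). Adipocyte markers went the other way, with 5 of 8 positive and a median of 0.27. So did the T and B cell lists, which were high on STM KO 2. None of these passed the adjusted threshold, and the part of these cells in the Errfi1 and other regulator readings was not tested.

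Ligand shedding genes lay near 0, with a median of 0.05 over 4 tested genes. Adam17, the main protease that frees amphiregulin, HB-EGF and TGF-alpha, read 1.17 and 1.89 on the STM KO arrays, against 1.64 and 1.75 on the WT arrays, and its log2 fold change was -0.16 ± 0.33 (SE, adjusted p = 0.960), or -0.56 on its second probe. Timp3, an inhibitor of ADAM17, had 0.18 ± 0.36 (adjusted p = 0.960), and -0.25 without WT 1. Adaptor and RAS to ERK genes had 7 positive and 8 negative fold changes of 15. The adaptor gene Grb2 read 1.61 and 2.10 on the STM KO arrays, against 2.29 and 2.23 on the WT arrays, a log2 fold change of -0.41 ± 0.28 (adjusted p = 0.935). It was -0.16 without STM KO 1, -0.65 without STM KO 2 and -0.19 under normexp.

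PI3K and AKT genes had 6 positive and 5 negative fold changes of 11 tested, with a median of 0.02. Grb7, an adaptor that binds ERBB2, read 1.37 on STM KO 1 and 1.005 on STM KO 2, against 1.67 on WT 1 and 1.78 on WT 2. Both STM KO arrays lay below both WT arrays, and its log2 fold change was -0.54 ± 0.26 (SE, adjusted p = 0.935), from -0.72 to -0.36 as each array was left out. With scaling by epithelial markers, which moved the median of all tested genes to 0.29, the log2 fold change of Grb7 was -0.25. In the mouse genome 1 protein-coding gene, Mien1, lies between Erbb2 and Grb7. Erbb2 and Grb7 were both lowest on STM KO 2, as were 22.4% of all tested genes. Pdpk1, which encodes the kinase that activates AKT, had 0.49 ± 0.29 (adjusted p = 0.935) on its brightest probe and -0.47 and -0.38 on 2 others. The brightest probe gave 0.23 without WT 2, 0.74 without WT 1 and 0.21 under normexp.

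**Figure D5:**
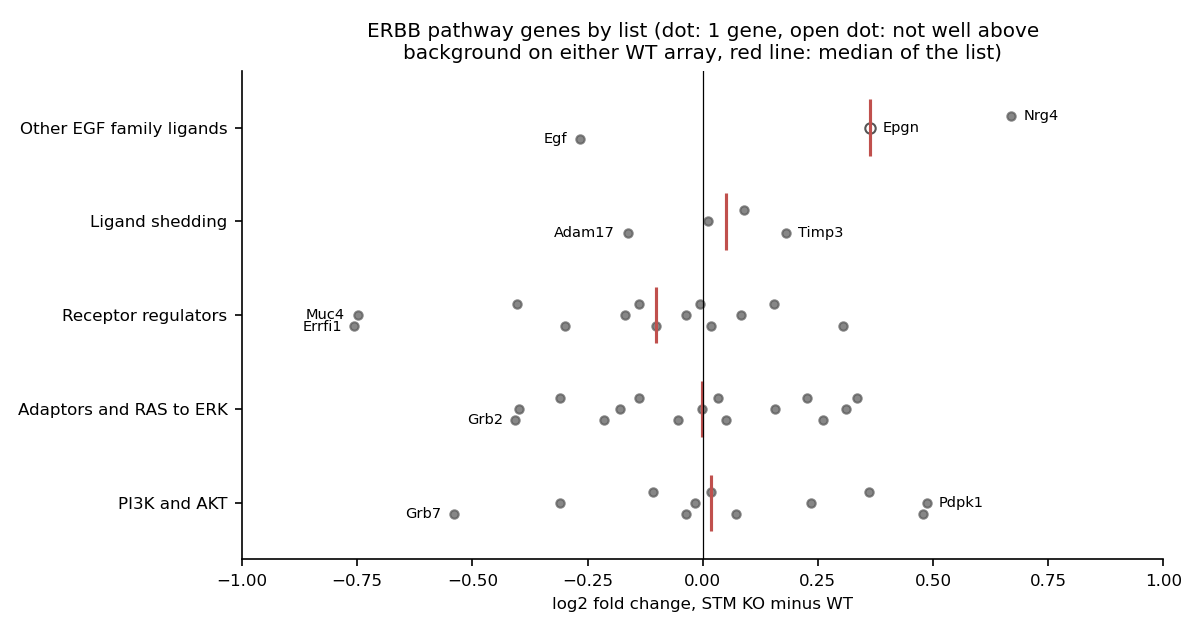
Log2 fold change (STM KO minus WT) of each tested gene in 5 lists of the ERBB pathway, 1 dot per gene by its brightest probe, with the list's median as a red line and Epgn open because it was not well above background on either WT array. The medians of the shedding, adaptor and PI3K lists are 0.05, -0.001 and 0.02, and Errfi1 and Muc4 are the lowest genes shown.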

How the data were processed

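Total RNA of mammary gland was labelled with Cy3 and hybridised to 1 array per sample, per the labels' protocols. The description field names EOC cells, against the other labels, and was not used. The deposited array files hold an intensity per spot, with background subtracted within the array by the scanner software, Feature Extraction, whose version is 11.5.1.1 per the file headers (the submitters' processing notes give 10.7.3.1). The flags for spots well above background, another deposited value, are 0 or 1 per spot. A deposited log2 table, of unstated steps, followed the quantile-normalized signals less the median of each probe (Pearson r at least 0.99989), which gives its scale, centring and sign. Medians of its columns were 0.00604 and -0.00977 for STM KO 1 and 2 and -0.0178 and 0.0184 for WT 1 and 2.

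Control spots were dropped, as were 35 to 73 outlier spots on each array, no spot was saturated, log2 signals were set against the array's 75th percentile and replicate spots were averaged per probe. A probe counted as well above background when over 50% of its spots were, and it was tested when that held on both arrays of at least 1 group (24182 of 41174 probes). Accessions without version were matched to RefSeq genes (GRCm38.p6), which named 27816 probes and left 13358 unnamed. The brightest probe over all arrays stands for a gene. The test of STM KO against WT was limma's moderated one (limma 3.58.1, R 4.3.3), with no covariate, adjusted over all tested probes. The fit was tested on simulated data. Every probe of each member is reported, with, from each pathway list, genes with an unadjusted p under 0.05 and the 2 largest fold changes among genes well above background on all arrays, plus the other EGF family ligands; a gene this rule also names is not reported here. Members and lists were chosen with earlier results of these data known. Alternatives were quantile, median and epithelial marker scaling, normexp, other filters, outlier spots kept, the deposited log2 table, a replicate block and each array left out.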

Additional observations from a re-analysis of the deposited data

How the results depend on the processing

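The 11 receptor and ligand probes were refitted under 9 alternatives that kept every array, and 91 of 97 log2 fold changes kept their direction and side of the threshold. The other 6 turned positive, none past the threshold: Btc (0.092 under median scaling, 0.066 under quantile normalization, 0.075 in the authors' deposited table, 0.21 under epithelial marker scaling) and, under epithelial marker scaling, Areg (0.056) and Egfr probe A_52_P674338 (0.053). Median and epithelial marker scaling take a single value per array from every probe. They shift every log2 fold change by the same amount, so the turns under these settings follow from the scaling. The cause of the turns under quantile normalization and in the deposited table was not tested. Median scaling moved the median of all genes to 0.17 and epithelial marker scaling moved it to 0.29. Of the named pathway genes, Adam17 turned to 0.011 under median scaling, 0.039 under normexp and 0.13 under epithelial marker scaling, and Egf to 0.026 under the last. The median over the 6 tested genes was -0.12 under median scaling and 0.0030 under epithelial marker scaling, and ran from -0.47 (without WT 1) to 0.088 (without WT 2) as each array was left out. With 1 array left out the lone array is assumed to vary like the other group. The ranges were then -0.61 to 0.14 for Areg, -0.21 to 0.043 for Btc, -0.60 to 0.068 for Egf and -0.52 to 0.20 for Adam17. For the Egfr probes they were -1.17 to 0.17 (A_52_P106259), -1.05 to 0.57 (A_52_P674338), -0.79 to 0.12 (A_51_P392242) and -0.73 to 0.12 (A_52_P56471). For Erbb3 they were -1.605 to 0.21 (A_51_P488243) and -0.81 to 0.086 (A_52_P133607), and for Timp3 -0.25 to 0.61. Probes past an adjusted p of 0.05 numbered 0, but 6 under median scaling and 13 under epithelial marker scaling, with 0 receptor or ligand probes and 0 pathway genes by their brightest probe among them. The planned normexp on mean signals was run on median signals instead, chosen after seeing the data. Same-numbered arrays of the 2 groups deviated together with a correlation of 0.06, so the numbers were not taken to pair them, and with the replicate block 0 probes passed. Signal over background limits what is shown for Erbb3, Erbb4, Ereg, Tgfa, Btc and Nrg1 and, outside the members, for Epgn, Nrg3 and Muc4.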
